A study of Mus musculus with 18 samples.

Results

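The 35 genes described here encode proteins of the centromere and the kinetochore. They were chosen by name, as the rows of the deposited gene tables whose symbol is on a list of such genes, out of 24505 gene entries, and all 35 were found and passed the filter on low values. RNA was sequenced from 18 libraries of E14Tg2a mouse embryonic stem cells, 3 for each of 6 groups. The groups were Daxx-null and wild-type cells in serum with LIF, Daxx-null and wild-type cells in 2i with vitamin C, and Daxx-null and wild-type cells given retinoic acid. Serum medium held 1000 units/mL of LIF, the cytokine that keeps these cells undifferentiated. The 2i medium held inhibitors of GSK3 and MEK, LIF and 100 µg/mL of vitamin C, and is used to hold cells in the ground state of pluripotency. Cells for the retinoic acid groups spent 24 h without LIF and a further 4 days without LIF at 10 µM retinoic acid, labelled as neuronal differentiation. The design text speaks of a single Daxx-null line, so genotype and line cannot be told apart. It calls the 3 replicates of a group independent without saying how they were separated, so the spread behind each p-value may be technical.

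The centromere is the chromosomal site that holds the sister chromatids to the spindle. It is marked by nucleosomes with the histone H3 variant CENP-A, which the chaperone HJURP deposits after mitosis at sites licensed by the MIS18 proteins. A constitutive network of CENP proteins sits on this chromatin and carries the MIS12 and NDC80 complexes, which grip microtubules, while the spindle checkpoint delays anaphase until every kinetochore is attached. Daxx is the chaperone of another H3 variant, H3.3, which it deposits with Atrx at heterochromatin, telomeric and pericentromeric repeats. In human cells that overproduce CENP-A, DAXX also takes part in placing it outside centromeres. Genes of the kinetochore are mostly transcribed in late S and G2 phase, so in bulk RNA a change in the share of cells in those phases and a change of RNA per cell cannot be told apart.

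Depth, recovered from the values of low genes, was 51.01 to 82.42 M counting units (M for mega) per library in gene exons, and each member had between 295 and 52433 units in each library. Daxx itself, the check of the labels, had 54.42 to 73.74 FPKM in the 9 Daxx-null libraries and 237.6 to 434.3 FPKM in the 9 wild-type libraries. The median of the 1035 tested chromosome 1 genes lay above that of every other chromosome in all 3 cultures, with a Daxx-null minus wild-type log2 difference of 0.12 in serum, 0.70 in 2i and 0.11 in retinoic acid. Chromosome 14 had a median of 0.69 in 2i. The summed FPKM of 3 Y-linked genes (Eif2s3y, Uty and Ddx3y, added after values had been seen) was 2.18 to 2.68 in Daxx-null serum and 1.20 to 2.59 in Daxx-null retinoic acid libraries, but 173.2 to 236.5 in Daxx-null 2i libraries, against 155.5 to 349.4 in the wild-type libraries. Y-linked RNA was thus present in Daxx-null 2i cells and close to 0 in the other Daxx-null cells, and the part of this difference in any comparison between cultures was not tested. The labels give every Daxx-null library the same line name. Whether the Daxx-null 2i cells and the other Daxx-null cells are that line alike was not tested, so in each comparison of Daxx effects with 2i a difference of cells and a difference of culture cannot be told apart. Within the Daxx-null 2i group, replicate 2 stood apart. The summed FPKM of 9 neural and retinoic acid markers was 1926 in replicate 2, against 434.1 and 412.9 in replicates 1 and 3. Tubb3 alone had 1204 FPKM in replicate 2. The sum of 5 fibroblast and feeder markers was 368.2 in replicate 2, against 58.54 and 59.38 in replicates 1 and 3. That of 5 pluripotency markers was 7343, against 14450.3 and 12328.3. In wild-type 2i cells, replicate 3 had the lowest sums of endoderm and of trophoblast markers.

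Promoter windows show which sequences lie at the start of the members whose RNA changed most clearly in 2i. RefSeq windows of 300 bases (250 before the start site and 50 after it, build GRCm38.p6) were matched by symbol for 32 of the 35 genes, in 35 windows. Spc24, Nsl1 and Incenp had no window. Printed 5′ to 3′ on the gene's own strand are the 3 members that were higher and the first 3 that were lower in Daxx-null 2i cells, ordered by adjusted p. Capitals mark CCAAT or its reverse complement ATTGG, the CCAAT box bound by NF-Y, and TTTGAA or TTCAAA, the core of the cell cycle genes homology region that marks many promoters of G2 and M phase genes. The higher members come first.
Zwint (chr10:72654596-72654895, plus strand): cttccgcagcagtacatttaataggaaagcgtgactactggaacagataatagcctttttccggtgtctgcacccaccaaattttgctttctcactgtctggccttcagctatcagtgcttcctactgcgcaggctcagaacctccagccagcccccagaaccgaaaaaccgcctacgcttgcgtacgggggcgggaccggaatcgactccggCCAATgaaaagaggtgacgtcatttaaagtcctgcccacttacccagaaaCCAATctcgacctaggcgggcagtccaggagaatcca
Cenpj (chr14:56571797-56572096, minus strand): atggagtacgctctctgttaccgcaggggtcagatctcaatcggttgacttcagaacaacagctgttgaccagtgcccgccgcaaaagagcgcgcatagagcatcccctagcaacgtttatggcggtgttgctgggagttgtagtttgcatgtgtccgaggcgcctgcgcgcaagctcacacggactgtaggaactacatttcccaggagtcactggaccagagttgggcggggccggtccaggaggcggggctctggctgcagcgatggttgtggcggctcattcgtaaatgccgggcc
Ndc80 (chr17:71526808-71527107, minus strand): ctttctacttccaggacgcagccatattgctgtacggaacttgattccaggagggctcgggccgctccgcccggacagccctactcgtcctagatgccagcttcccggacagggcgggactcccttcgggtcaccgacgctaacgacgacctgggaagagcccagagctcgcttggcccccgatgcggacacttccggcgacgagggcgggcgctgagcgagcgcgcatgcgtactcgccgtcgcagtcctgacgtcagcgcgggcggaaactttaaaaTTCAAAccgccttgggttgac
Bub1b (chr2:118597961-118598260, plus strand): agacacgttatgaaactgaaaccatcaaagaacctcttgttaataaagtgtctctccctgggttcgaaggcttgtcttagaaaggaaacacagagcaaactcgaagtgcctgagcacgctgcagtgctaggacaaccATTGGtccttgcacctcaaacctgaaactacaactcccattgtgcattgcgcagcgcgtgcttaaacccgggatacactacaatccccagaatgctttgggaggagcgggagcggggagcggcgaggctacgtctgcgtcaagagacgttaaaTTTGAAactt
Bub1 (chr2:127831810-127832109, minus strand): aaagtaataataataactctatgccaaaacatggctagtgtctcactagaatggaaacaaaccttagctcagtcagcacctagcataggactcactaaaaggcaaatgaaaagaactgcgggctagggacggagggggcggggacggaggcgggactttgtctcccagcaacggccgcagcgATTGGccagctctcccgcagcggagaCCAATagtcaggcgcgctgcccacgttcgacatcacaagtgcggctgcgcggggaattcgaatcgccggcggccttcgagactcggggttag
Mad2l1 (chr6:66534971-66535270, plus strand): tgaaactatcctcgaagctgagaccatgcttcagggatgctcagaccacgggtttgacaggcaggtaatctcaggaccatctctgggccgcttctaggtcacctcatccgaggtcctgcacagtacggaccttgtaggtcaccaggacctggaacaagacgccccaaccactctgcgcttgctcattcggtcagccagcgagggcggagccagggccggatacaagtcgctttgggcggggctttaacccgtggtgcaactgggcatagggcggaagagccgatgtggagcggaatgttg
Zwint and Bub1 each held 2 CCAAT matches, Bub1b held 1 match of each motif, Ndc80 held 1 match of TTTGAA, and Cenpj and Mad2l1 held neither.

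Over all member windows, on either strand, CCAAT was found in 25 of 35 (71.4%), against 37.4% of the 32851 windows of all genes. TTTGAA was found in 14 of 35 (40%), against 17.9%, and both stood in the same window in 13 of 35 (37.1%), against 6.95%. The letters GCGGGAA, a form of the E2F site of S phase genes that does not overlap the other motifs in its letters, were found in 9 of 35 (25.7%), against 4.6%. Among the windows of members that fell in Daxx-null 2i cells, 9 of 13 held CCAAT and 5 of 13 held TTTGAA and 5 of 13 held GCGGGAA. Among the windows of members not called there, 15 of 19 held CCAAT, 8 of 19 held TTTGAA and 4 of 19 held GCGGGAA. Bub3 has overlapping windows that hold the same matches, and Cenpk has several windows, so these are counts of windows and not of genes. They are a description of the windows, and a match is not a bound site.

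**Figure D1:**
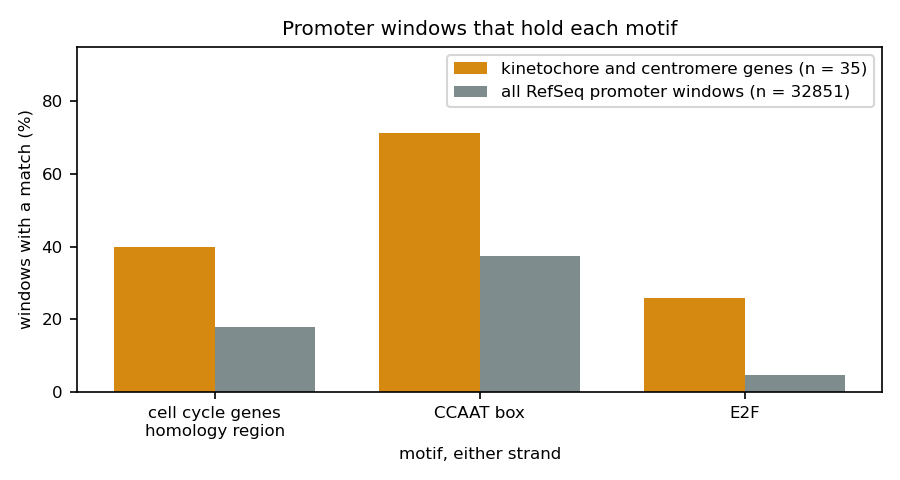
Share of promoter windows (percent, vertical axis) that hold each of 3 motifs on either strand, for the 35 windows of the kinetochore and centromere genes and for the 32851 windows of all genes. The members' share is 40% against 17.9% for TTTGAA, 71.4% against 37.4% for CCAAT and 25.7% against 4.6% for GCGGGAA.

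Levels are given as deposited FPKM, a value per length of exon, so that genes can be compared. What total they were scaled to is not stated, and they are 5.82 to 6.10 times the values per M counting units in exons, so they are higher than FPKM scaled to exon units would be and the filter at 1 FPKM is correspondingly lenient. Group means ran between 21.37 FPKM (Cenpj in wild-type 2i) and 677.8 FPKM (Bub1b in wild-type serum). The highest group mean of a gene was a median of 1.733 times its lowest, and 12 of the 35 genes varied by more than 2-fold. Cenpm, a small subunit of the constitutive network, varied most, with 653.7 ± 21.51 FPKM in wild-type 2i and 96.91 ± 3.281 FPKM in wild-type retinoic acid cells (SD, n = 3 each). Cenpi, another subunit of that network, varied least, at 53.6 ± 3.015 FPKM in wild-type serum and 43.0 ± 2.423 FPKM in Daxx-null 2i. The lowest of the 6 group means was that of Daxx-null 2i cells for 18 genes and that of a retinoic acid group for 11 genes.

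**Figure D2:**
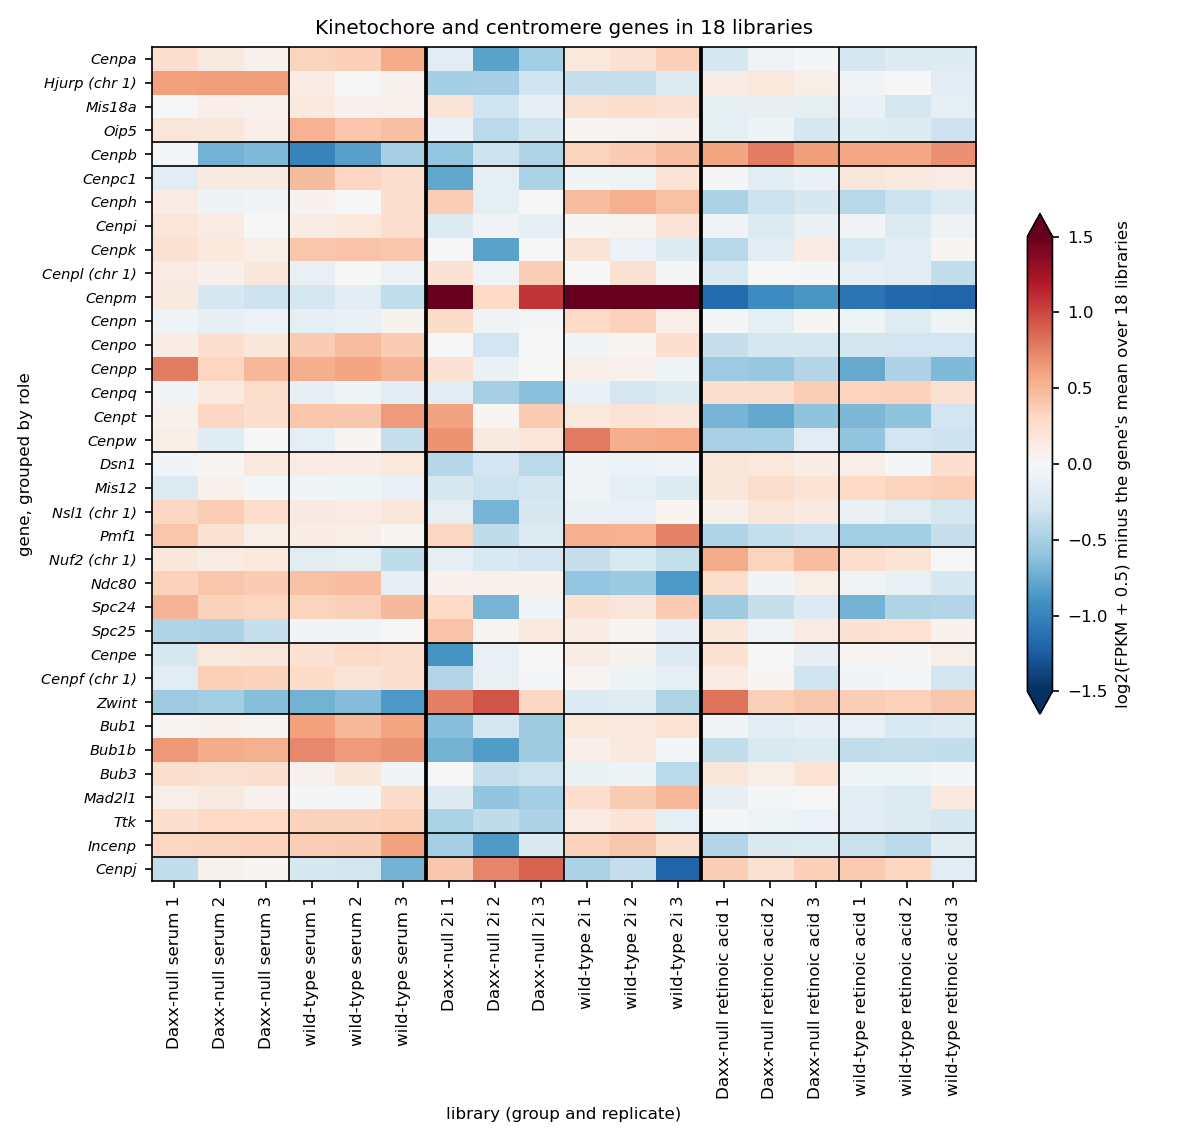
Each row is a gene, ordered by role and separated by horizontal lines, each column a library, and the colour is log2(FPKM + 0.5) minus the gene's mean over the 18 libraries. Colours stop at 1.5, and Cenpm passes that in the 3 wild-type 2i libraries and in Daxx-null 2i replicate 1. Bub1, Bub1b, Mad2l1 and Ttk are blue in the 3 Daxx-null 2i libraries, and Cenpb is blue in wild-type serum and red in both retinoic acid groups.

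The comparison of Daxx-null with wild-type cells asks what loss of Daxx does to these genes in each culture. In serum, 2 members were higher and 3 were lower in Daxx-null cells (limma, adjusted p under 0.05 over 18002 genes, which is what called means throughout). Of all tested genes, 9.29% were called higher, 18.9% lower and 28.2% either way. The members' 5 calls of 35 lie below that background. In each comparison of 2 groups, called members are named with statistics only where the groups do not overlap. The separation of such members follows from that choice and is no further support for the call. The median log2 difference of the 35 genes was -0.03, against -0.12 for all tested genes. The CENP-A chaperone Hjurp and the NDC80 complex subunit Nuf2, both on chromosome 1, rose. The checkpoint kinase Bub1, the NDC80 complex subunit Spc25 and the MIS18 complex subunit Oip5 fell, by 1.24-fold to 1.44-fold.

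Hjurp (mm9, chr1:90155431-90174154) had 490.3, 492.3 and 492.7 FPKM in Daxx-null serum libraries, against 345.7, 319.0 and 331.1 FPKM in wild-type serum libraries. The 2 sets of libraries were far apart and the Daxx-null ones nearly equal, and the log2 difference was 0.57 (SE 0.07, adjusted p = 5.8e-05). Nuf2 (chr1:171428065-171461595) had 195.6, 189.1 and 195.4 FPKM in Daxx-null libraries, against 155.8, 158.6 and 133.6 FPKM in wild-type libraries. Its groups did not overlap either, with a log2 difference of 0.38 (SE 0.09, adjusted p = 0.00589). With each chromosome's median shift removed from each library, the differences were 0.44 for Hjurp (adjusted p = 0.00782) and 0.25 for Nuf2 (adjusted p = 0.0433). Strand is not given, and Hjurp overlaps the entries 6430706D22Rik, A730008H23Rik and Mroh2a, so reads of these cannot be told apart where exons coincide.

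Bub1, the kinase that recruits checkpoint proteins and marks centromeric H2A, had 156.9, 160.1 and 158.5 FPKM in Daxx-null serum libraries, against 235.4, 216.1 and 233.4 FPKM in wild-type libraries (mm9, chr2:127625936-127657595). Every Daxx-null value lay below every wild-type value, and the log2 difference was -0.52 (SE 0.09, adjusted p = 0.00042). Spc25 had 262.3, 259.1 and 282.0 FPKM in Daxx-null libraries, against 347.1, 347.6 and 360.5 FPKM in wild-type libraries. Its log2 difference was -0.39 (SE 0.10, adjusted p = 0.00688), and it became -0.28 (adjusted p = 0.0509) under median-ratio scaling. Oip5, which licenses centromeres for new CENP-A, had 192.0, 191.0 and 181.4 FPKM in Daxx-null libraries, against 244.5, 225.9 and 231.4 FPKM in wild-type libraries. Its groups were also separate, with a log2 difference of -0.31 (SE 0.08, adjusted p = 0.00865), and it became -0.20 (adjusted p = 0.118) under median-ratio scaling. With chromosome shifts removed the difference was -0.39 for Bub1 (adjusted p = 0.00499). In that setting it was -0.26 for Spc25 (adjusted p = 0.0844) and -0.18 for Oip5 (adjusted p = 0.203), and neither passed. Oip5 overlaps Nusap1 on the other strand.

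None of the 12 constitutive network genes, the 4 MIS12 complex genes or the 3 genes grouped as corona and motor proteins was called in serum. Cenpa, the centromeric histone itself, had 591.7, 542.0 and 517.2 FPKM in Daxx-null libraries, against 625.1, 635.9 and 728.8 FPKM in wild-type libraries. The values did not overlap, but the log2 difference of -0.27 (SE 0.12) did not pass (adjusted p = 0.119). Incenp, the scaffold of the chromosomal passenger complex and a known partner of heterochromatin proteins, had 509.2, 514.8 and 518.4 FPKM in Daxx-null libraries, against 526.0, 531.7 and 622.1 FPKM in wild-type libraries. These were separate but adjacent, and the difference of -0.12 (SE 0.12) did not pass (adjusted p = 0.525).

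The other chromosome 1 members did not pass in serum either. Cenpl, of the constitutive network, had 80.11, 77.59 and 82.6 FPKM in Daxx-null libraries, against 67.94, 73.13 and 69.97 FPKM in wild-type libraries (log2 difference 0.19, adjusted p = 0.242). Nsl1, of the MIS12 complex, had 152.8, 158.8 and 147.6 FPKM in Daxx-null libraries, against 135.7, 133.8 and 139.7 FPKM in wild-type libraries (0.17, adjusted p = 0.291). Cenpf, a large protein of the outer kinetochore corona, had 142.3, 204.4 and 203.2 FPKM in Daxx-null libraries, against 194.2, 182.7 and 190.0 FPKM in wild-type libraries (-0.06, adjusted p = 0.797). Cenpl and Nsl1 were higher in every Daxx-null library, and the values of Cenpf overlapped. The 5 chromosome 1 members had a median log2 difference of 0.19, against 0.12 for all chromosome 1 genes, and the other 30 members had a median of -0.05, against -0.13 for all genes off chromosome 1.

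The balance of the serum calls depends on how libraries are scaled. Under median-ratio scaling 4 members were higher and 1 was lower, against 13.6% and 14.1% of all genes in that setting, and the members' median turned to 0.08. Relative to the median of all genes it was 0.09 as deposited, 0.11 under median-ratio scaling and -0.01 after quantile normalization. Markers of other cell types moved in serum too. The summed FPKM of 5 endoderm markers was 10.29 to 12.93 in Daxx-null and 55.2 to 70.98 in wild-type serum libraries, with 4 of 5 called lower. That of 5 fibroblast and feeder markers was 23.32 to 28.29 in Daxx-null and 51.21 to 86.98 in wild-type libraries, with 3 of 5 called lower and 1 at 0 in every Daxx-null serum library. The 5 pluripotency markers summed to 19891.8 to 23961.2 in Daxx-null and 17653.6 to 18421.1 in wild-type libraries, with none called. The part of these markers in the serum result was not tested. Of 26 further kinetochore and centromere genes, 1 rose in serum (Ska3, 0.72) and 2 fell (Cenpu and Aurkb), and of 25 genes of mitotic entry and the spindle 8 fell and none rose.

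In 2i the change was wider. In Daxx-null 2i cells 15 members were lower and 3 were higher than in wild-type 2i cells. Of all tested genes the shares ran the other way, with 15.3% called lower, 31.5% called higher and 46.8% called either way. The members' median log2 difference was -0.30, against 0.20 for all tested genes. Under median-ratio scaling the medians were -0.45 for the members and 0.05 for all genes, and after quantile normalization they were -0.41 and -0.03. Relative to all genes the members' median was -0.49 as deposited, -0.50 under median-ratio scaling and -0.38 after quantile normalization. The members that fell include 4 of the 5 checkpoint genes, 3 of the 4 genes of CENP-A and its loading, 3 of the 4 MIS12 complex genes, 3 of the 12 constitutive network genes, Cenpb and Incenp. The members that rose were Zwint, Ndc80 and Cenpj.

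Among the checkpoint genes, Bub1b, whose product BubR1 inhibits the anaphase-promoting complex, had 257.4, 236.4 and 289.9 FPKM in Daxx-null 2i libraries, against 443.9, 469.0 and 417.1 FPKM in wild-type 2i libraries (mm9, chr2:118423947-118467328). It fell by 1.7-fold, with a log2 difference of -0.77 (SE 0.08, adjusted p = 3.3e-06). Bub1 had 98.49, 129.4 and 105.9 FPKM in Daxx-null libraries, against 171.5, 170.3 and 177.2 FPKM in wild-type libraries (-0.64, SE 0.09, adjusted p = 3.3e-05). Mad2l1, which makes the Mad2 protein that closes onto Cdc20, had 227.2, 171.3 and 182.0 FPKM in Daxx-null libraries, against 309.7, 337.7 and 366.5 FPKM in wild-type libraries (chr6:66485462-66490985). Its log2 difference was -0.81 (SE 0.12, adjusted p = 6.5e-05). In all 3 genes each Daxx-null library lay below each wild-type library, which the rule for naming members requires. Ttk, the Mps1 kinase that starts checkpoint signalling, averaged 115.3 ± 4.017 FPKM in Daxx-null and 163.8 ± 20.56 FPKM in wild-type cells (SD, n = 3 each), a log2 difference of -0.50 (SE 0.08, adjusted p = 0.00014). Bub3, the remaining checkpoint gene, averaged 212.3 ± 30.93 FPKM and 216.8 ± 26.88 FPKM in the same order, with a log2 difference of -0.03 (SE 0.10, adjusted p = 0.813).

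At the inner centromere, Incenp (mm9, chr19:9946787-9974023) had 288.2, 226.5 and 350.5 FPKM in Daxx-null 2i libraries, against 518.9, 540.5 and 483.0 FPKM in wild-type 2i libraries. It fell by 1.81-fold (log2 difference -0.85, SE 0.12, adjusted p = 6.7e-05). Cenpa (chr5:30969259-30977210) had 438.7, 284.5 and 347.6 FPKM in Daxx-null libraries, against 551.2, 577.9 and 632.8 FPKM in wild-type libraries. All Daxx-null values were lower, with a log2 difference of -0.74 (SE 0.12, adjusted p = 0.00021). Cenpb, whose product binds a short box in the minor satellite DNA of mouse centromeres, averaged 310.7 ± 29.43 FPKM in Daxx-null and 555.1 ± 25.11 FPKM in wild-type cells (SD, n = 3 each). Its log2 difference was -0.84 (SE 0.15, adjusted p = 0.00041). The MIS18 complex genes Oip5 and Mis18a fell as well, by 0.31 each on the log2 scale (adjusted p = 0.00489 for Oip5 and 0.0131 for Mis18a). Hjurp was not called, with 223.6, 225.3 and 260.6 FPKM in Daxx-null libraries, against 251.3, 251.8 and 278.9 FPKM in wild-type libraries, which overlapped (-0.14, SE 0.07, adjusted p = 0.123).

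The MIS12 complex joins the inner network to the NDC80 complex. Its subunit Pmf1 averaged 427.8 ± 110.8 FPKM in Daxx-null 2i and 677.5 ± 61.29 FPKM in wild-type 2i cells (SD, n = 3 each), a log2 difference of -0.69 (SE 0.14, adjusted p = 0.00073). The members outside the first 8 falls are given here to account for all of them. Dsn1 (-0.30, adjusted p = 0.00579) and Nsl1 (-0.31, adjusted p = 0.0327) fell too, and Mis12 had a difference of -0.15 (adjusted p = 0.108). In the constitutive network Cenpc1, which ties CENP-A nucleosomes to the MIS12 complex, fell by 0.50 on the log2 scale (adjusted p = 0.00942). Cenph fell by 0.40 (adjusted p = 0.00881) and Cenpm fell by 0.61 (adjusted p = 0.0248). The other 9 network genes were not called, with log2 differences between -0.30 for Cenpw and 0.15 for Cenpt. Without Daxx-null 2i replicate 2, which stood apart, Cenpm, Mis18a and Nsl1 lost their calls.

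The members that rose in 2i were Zwint, grouped here with the corona and motor proteins, Ndc80 of the NDC80 complex and Cenpj of the centriole. No other gene of the NDC80 complex and none of the MIS12 complex was called higher, and 3 of the 4 MIS12 complex genes fell. Zwint, whose product helps recruit the Rod, Zw10 and Zwilch complex, had 480.6, 547.3 and 351.9 FPKM in Daxx-null 2i libraries, against 247.8, 248.9 and 208.0 FPKM in wild-type 2i libraries (mm9, chr10:72117594-72137712). It rose by 1.93-fold (log2 difference 0.95, SE 0.14, adjusted p = 8.2e-05). Ndc80, the microtubule-binding subunit of its complex, had 35.86, 35.89 and 35.67 FPKM in Daxx-null libraries, against 22.86, 23.21 and 18.69 FPKM in wild-type libraries (chr17:71845440-71876197). The Daxx-null values were nearly equal and all higher (0.72, SE 0.15, adjusted p = 0.00105), but after quantile normalization the difference was 0.33 and did not pass (adjusted p = 0.0692). Cenpj, despite its symbol, encodes a protein of the centriole that sets centriole length. It had 44.38, 55.87 and 61.92 FPKM in Daxx-null libraries, against 23.95, 25.87 and 14.28 FPKM in wild-type libraries (chr14:57145598-57190683). Its groups were well apart (1.35, SE 0.22, adjusted p = 0.00018). Cenpj lies on chromosome 14, whose genes had a median of 0.69 in 2i, and with chromosome shifts removed its difference was 0.73 (adjusted p = 0.00154). The other NDC80 complex genes were not called, with differences of 0.20 for Spc25, 0.09 for Nuf2 and -0.41 for Spc24.

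**Figure D3:**
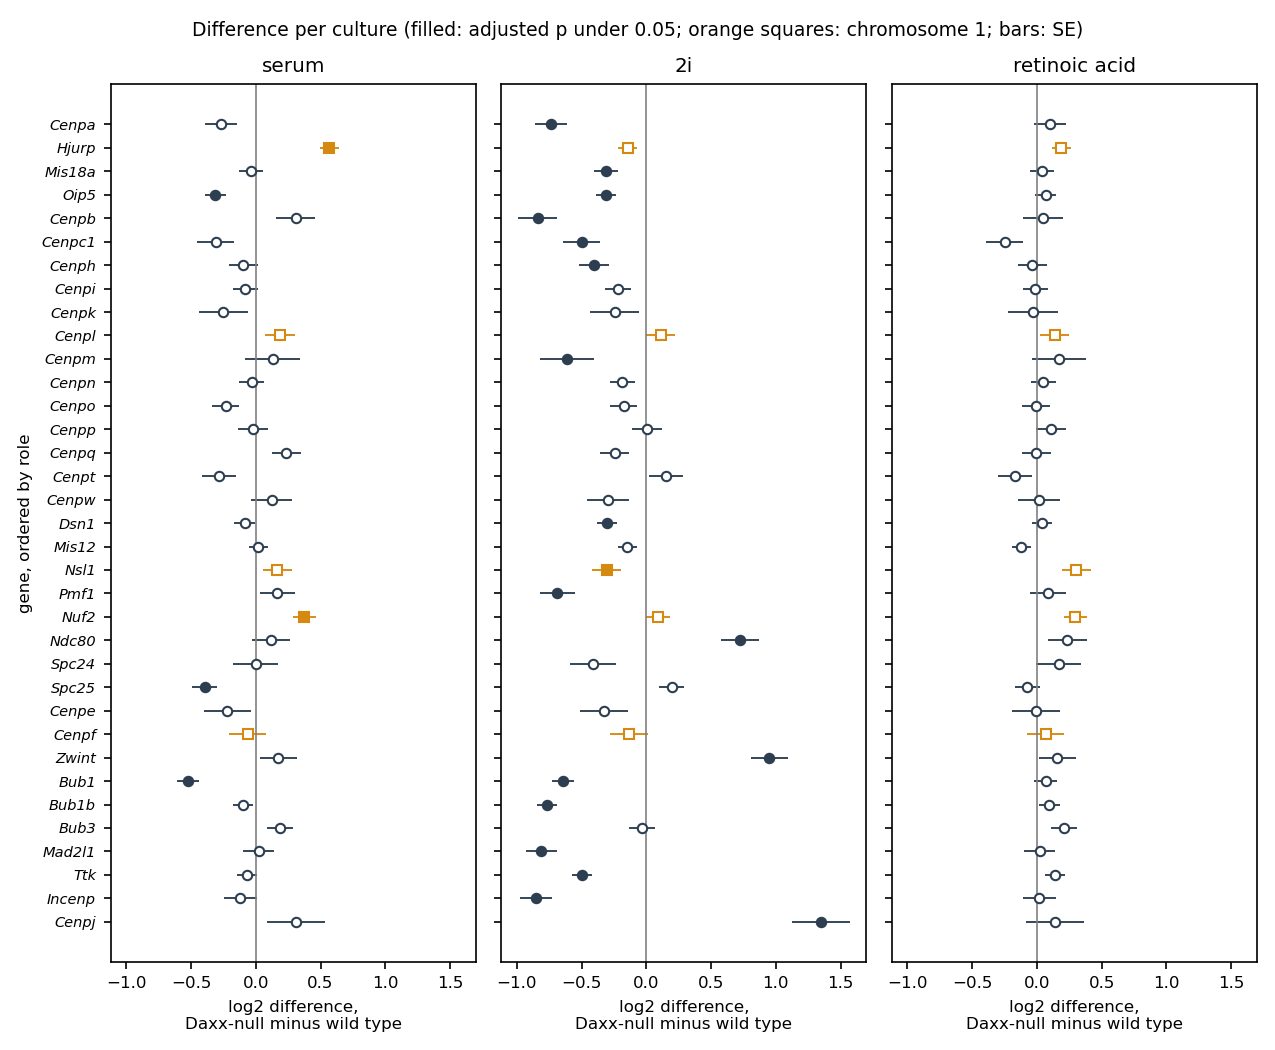
Log2 difference (Daxx-null minus wild type, horizontal axis, bars SE) for each of the 35 genes in serum, 2i and retinoic acid, with filled symbols where the adjusted p was under 0.05 and orange squares for chromosome 1 genes. In 2i, 15 filled symbols lie left of 0 and 3 lie right of it, while the retinoic acid panel has none.

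**Figure D4:**
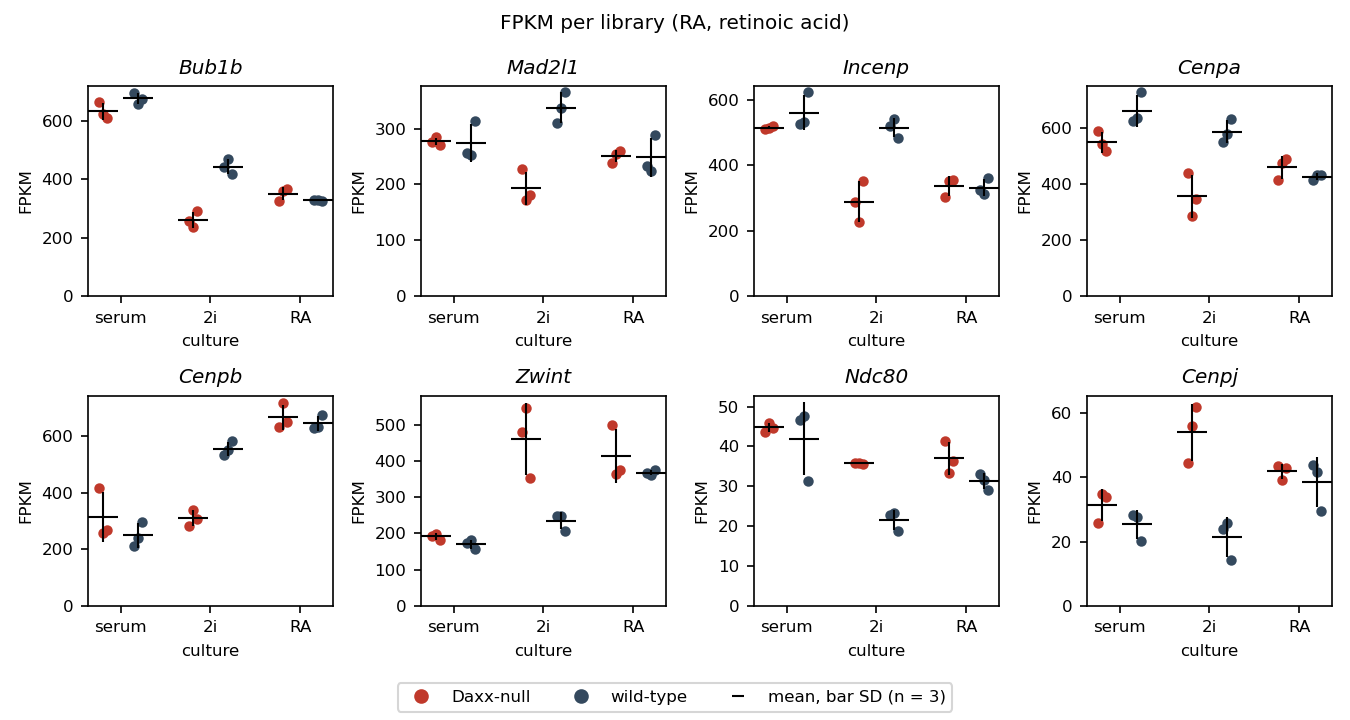
FPKM of 8 genes in each library (points), with Daxx-null left of wild type in each culture, the mean as a horizontal line and the SD as a bar (n = 3). Bub1b, Mad2l1, Incenp, Cenpa and Cenpb are lower and Zwint, Ndc80 and Cenpj are higher in Daxx-null 2i cells. The genotypes do not overlap there, which the rule for naming members requires.

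Chromosome 1 as a body was highest in Daxx-null 2i cells, but its kinetochore genes were not. In Daxx-null 2i replicates 1, 2 and 3 the chromosome 1 median exceeded that of other genes by 0.53, 0.58 and 0.51 on the log2 scale. The 5 chromosome 1 members nonetheless had a median log2 difference of -0.13, against 0.70 for the 1035 chromosome 1 genes, and none was called higher, while 651 of the 1035 were. The other 30 members had a median of -0.31, against 0.17 for all genes off chromosome 1. Nsl1 had 111.0, 75.5 and 104.3 FPKM in Daxx-null 2i libraries, against 115.0, 114.3 and 126.0 FPKM in wild-type libraries. Cenpf had 117.8, 147.8 and 156.9 FPKM in Daxx-null libraries, against 164.3, 151.8 and 144.7 FPKM in wild-type libraries. Nuf2 had 157.7, 148.7 and 142.9 FPKM in Daxx-null libraries, against 137.4, 148.9 and 136.0 FPKM in wild-type libraries. Of these, the values of Nsl1 were separate and those of Cenpf and Nuf2 overlapped. Cenpl, with 85.84, 71.06 and 95.22 FPKM in Daxx-null libraries and 73.75, 86.31 and 72.25 FPKM in wild-type libraries, overlapped too. With chromosome shifts removed, 26 members were lower in 2i, against 22.7% of all genes in that setting, with Hjurp, Cenpf, Cenpl and Nuf2 of chromosome 1 among those added.

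**Figure D5:**
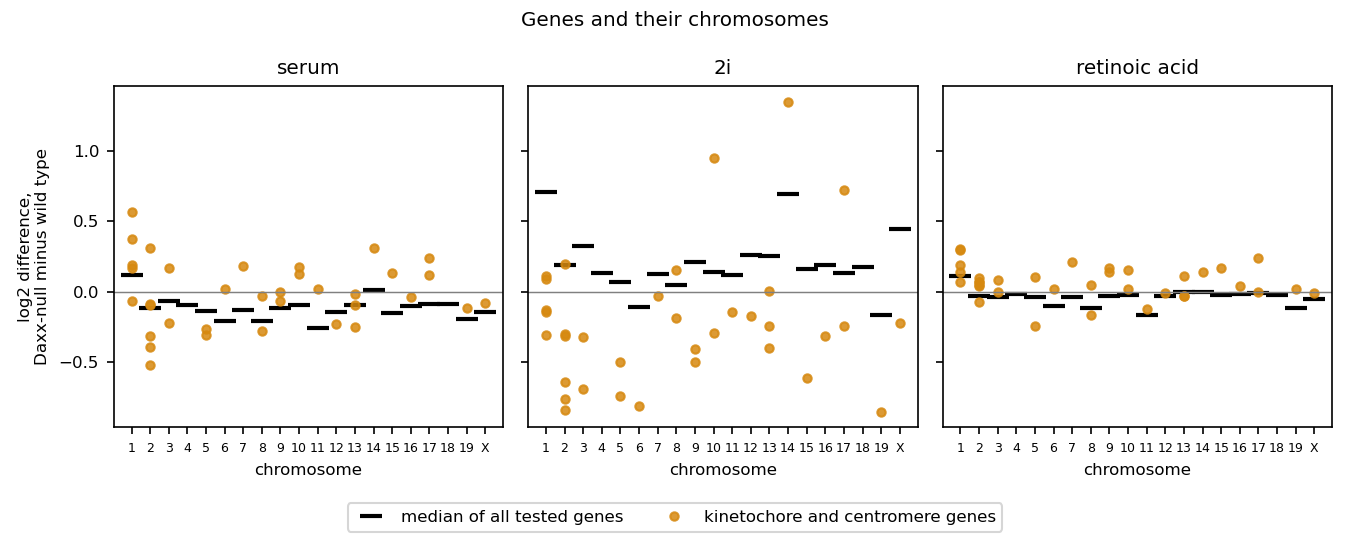
Log2 difference (Daxx-null minus wild type, vertical axis) of the 35 genes (points) and the median of all tested genes (bars) on each chromosome, in serum, 2i and retinoic acid. In 2i the chromosome 1 bar lies at 0.70 and its 5 points lie between -0.31 and 0.11.

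Other measures moved with the 2i result. The summed FPKM of 5 pluripotency markers was 7343 to 14450.3 in Daxx-null 2i and 18019.7 to 19383.5 in wild-type 2i libraries, and 4 of the 5 (Pou5f1, Sox2, Zfp42 and Esrrb) were called lower. The sum of 5 endoderm markers was 224.6 to 345.9 in Daxx-null and 37.66 to 93.71 in wild-type libraries, with 4 of 5 called higher. That of 5 fibroblast and feeder markers was 58.54 to 368.2 in Daxx-null and 19.23 to 90.16 in wild-type libraries, with 1 of 5 called higher. Its highest value was that of Daxx-null 2i replicate 2. That of 4 trophoblast markers was 543.5 to 738.9 in Daxx-null and 35.29 to 117.9 in wild-type libraries, with 2 of the 3 tested called higher. Most of this sum came from the keratin genes Krt18 and Krt8. Krt18 averaged 413.3 FPKM in Daxx-null 2i and 40.17 FPKM in wild-type 2i cells, and Krt8 averaged 192.2 and 33.39 FPKM. Cdx2 averaged 18.15 and 8.428 FPKM in the same order, and Elf5 was lower still, so the sum mainly describes the keratin genes. No gene of these lists was at 0 in all 3 libraries of either genotype. Their part in the kinetochore result was not tested. Among lists of other genes, 15 of 26 further kinetochore and centromere genes fell and 2 rose (Ska3 by 0.84 and Mad1l1 by 0.37 on the log2 scale). Ska3 lies on chromosome 14. The falls include the passenger complex kinase Aurkb (-0.65, adjusted p = 4.3e-05), the shugoshin Sgol1 (-0.75, adjusted p = 8e-06) and the histone H3 kinase haspin, listed as Gsg2 (-0.76, adjusted p = 3.8e-05). Of 25 genes of mitotic entry and the spindle, 18 fell and none rose, with a median log2 difference of -0.38. Of 25 replication genes, 14 fell and 1 rose (Mcm6), with a median of -0.35. Mcm6 lies on chromosome 1.

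Leaving out Daxx-null 2i replicate 2 gave 12 members lower and 5 higher, against 14.7% and 29.5% of all genes in that fit. Leaving out both that library and wild-type 2i replicate 3 gave 11 lower and 3 higher, against 14.8% and 26.0%. With only the 2i libraries in the fit, 8 members were lower and 3 higher, against 6.69% and 15.1% of all genes in that fit. Cenpc1, Cenph, Cenpm, Dsn1, Mis18a, Nsl1 and Oip5 lost their calls there. Leaving out wild-type 2i replicate 3 also ended the calls of Cenpm and Nsl1, leaving out wild-type 2i replicate 1 that of Nsl1, and applying no filter on low values that of Cenpm.

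In retinoic acid no member was called, in a comparison where 0.222% of all tested genes were called higher, 2.27% lower and 2.49% either way. By the same limma fit 3 members (Hjurp, Nsl1 and Nuf2, all on chromosome 1) had an unadjusted p under 0.05. So did 2257 of all 18002 tested genes and 248 of the 1035 tested genes on chromosome 1. With limma's array weights 12 members were called higher and 3 lower, where 13.1% and 19.3% of all genes were. The members' median log2 difference was 0.07, against -0.05 for all genes, and the members' differences ran between -0.25 for Cenpc1 and 0.30 for Nsl1. Cenpa had 413.8, 477.1 and 488.8 FPKM in Daxx-null retinoic acid libraries, against 413.9, 433.4 and 434.2 FPKM in wild-type libraries (0.10, SE 0.12, adjusted p = 0.852). Incenp had 302.0, 351.4 and 354.9 FPKM in Daxx-null libraries, against 323.0, 310.3 and 360.3 FPKM in wild-type libraries (0.02, SE 0.12, adjusted p = 0.995). Both genes overlapped between genotypes.

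The 5 chromosome 1 members had a median log2 difference of 0.19 in retinoic acid, against 0.11 for all chromosome 1 genes. Hjurp had 346.3, 357.9 and 338.6 FPKM in Daxx-null libraries, against 311.3, 319.1 and 286.4 FPKM in wild-type libraries (0.19, SE 0.07, adjusted p = 0.271). Nuf2 had 257.2, 219.2 and 241.5 FPKM in Daxx-null libraries, against 209.9, 201.4 and 173.3 FPKM in wild-type libraries (0.30, SE 0.09, adjusted p = 0.118). Nsl1 had 129.7, 139.8 and 135.4 FPKM in Daxx-null libraries, against 115.0, 109.9 and 102.8 FPKM in wild-type libraries (0.30, SE 0.11, adjusted p = 0.220). The values of these 3 genes did not overlap between genotypes, and none of the 3 passed the test. How many of all tested genes are separate in this way was not counted. Cenpl, with 62.49, 73.73 and 72.71 FPKM in Daxx-null and 66.98, 65.87 and 56.89 FPKM in wild-type libraries, overlapped, as did Cenpf, with 175.0, 163.3 and 130.5 FPKM in Daxx-null and 155.5, 158.5 and 131.7 FPKM in wild-type libraries. None of the 26 further kinetochore genes or the 25 spindle genes was called, and 1 of 25 replication genes (Mcm6, 0.48, adjusted p = 0.00447) was. Of the pluripotency markers 3 of 5 (Pou5f1, Nanog and Zfp42) were called lower, while the sum of all 5 was 530.3 to 900.0 in Daxx-null and 556.8 to 616.3 in wild-type retinoic acid libraries. The 9 neural and retinoic acid markers summed to 2583 to 2845 in Daxx-null and 2919 to 3182 in wild-type libraries, with none called.

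Whether the Daxx effect differs between cultures was tested as a difference of log2 differences. Between 2i and serum 10 members had a lower and 4 a higher effect in 2i, against 11.5% and 31.5% of all tested genes and 43.1% either way. The median of this difference was -0.22 over the members and 0.34 over all genes. Median-ratio scaling gave 21 lower and 2 higher, against 19.9% and 23.4% of all genes in that setting. Quantile normalization gave 14 lower and 3 higher, against 19.1% and 17.0%. Relative to all genes the members' median was -0.55 as deposited, -0.58 under median-ratio scaling and -0.32 after quantile normalization.

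Hjurp had a log2 difference of 0.57 in serum and of -0.14 in 2i, so that its effect was lower by 0.71 in 2i (SE 0.10, adjusted p = 8.8e-05). With chromosome shifts removed the difference of effects on Hjurp was -1.30 (adjusted p = 2e-05). For Cenpb the Daxx effect in 2i minus that in serum was -1.15 (SE 0.22, adjusted p = 0.00067). Cenpb had 282.2, 340.9 and 308.9 FPKM in Daxx-null 2i libraries, against 532.6, 550.5 and 582.1 FPKM in wild-type 2i libraries. In serum it had 416.8, 257.6 and 267.2 FPKM in Daxx-null libraries, against 211.0, 240.3 and 298.5 FPKM in wild-type libraries. Its values were apart in 2i and overlapped in serum. Bub1b (-0.67, adjusted p = 0.00024) and Mad2l1 (-0.83, adjusted p = 0.00103) were lower in 2i and not called in serum, where Bub1b had 665.5, 622.8 and 611.6 FPKM in Daxx-null libraries and 697.1, 660.0 and 676.3 FPKM in wild-type libraries. Mad2l1 had 276.2, 284.6 and 271.4 FPKM in Daxx-null serum libraries, against 256.0, 253.2 and 314.4 FPKM in wild-type serum libraries. Pmf1 (-0.85), Incenp (-0.74), Ttk (-0.43), Cenpq (-0.48), Nsl1 (-0.47) and Cenpa (-0.47) complete the lower ones. For Ttk the value was -0.76 with chromosome shifts removed. The Cenpq call was lost with only the groups compared (adjusted p = 0.0614), and without Daxx-null 2i replicate 3 (0.059), wild-type 2i replicate 1 (0.0526) or Daxx-null serum replicate 3 (0.0635). That of Nsl1 was lost with only the groups compared and without Daxx-null serum replicate 2. That of Cenpa was lost after quantile normalization, in the authors' table, with no filter on low values, with only the groups compared, and without any of Daxx-null 2i replicates 2 and 3, wild-type 2i replicates 2 and 3, Daxx-null serum replicates 1 and 2 and wild-type serum replicates 1 and 2.

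Spc25 led the higher ones, with an effect in 2i that exceeded that in serum by 0.59 (SE 0.14, adjusted p = 0.00298). This call was lost with chromosome shifts removed (0.27, adjusted p = 0.166) and under median-ratio scaling (0.33, adjusted p = 0.0803). It had 481.8, 368.0 and 395.7 FPKM in Daxx-null 2i libraries, against 385.9, 367.0 and 329.2 FPKM in wild-type 2i libraries, which overlapped, whereas it was lower in Daxx-null serum cells. Zwint (0.78, SE 0.20, adjusted p = 0.00589) had 193.9, 199.2 and 182.0 FPKM in Daxx-null serum libraries, against 173.5, 180.5 and 156.4 FPKM in wild-type serum libraries. Cenpj (1.04, SE 0.31, adjusted p = 0.0142) had 25.81, 34.8 and 33.91 FPKM in Daxx-null serum libraries, against 28.21, 27.6 and 20.29 FPKM in wild-type serum libraries. Ndc80 (0.61, SE 0.21, adjusted p = 0.0301) had 43.62, 45.94 and 44.75 FPKM in Daxx-null serum libraries, against 46.7, 47.7 and 31.36 FPKM in wild-type serum libraries. In serum Zwint was narrowly separate and Cenpj and Ndc80 overlapped. After quantile normalization the Ndc80 difference of effects was 0.07 (adjusted p = 0.809) and that of Cenpj was 0.52 (adjusted p = 0.130). The Ndc80 call was also lost under median-ratio scaling (0.34, adjusted p = 0.180), and with chromosome shifts removed neither passed (adjusted p = 0.107 for Ndc80 and 0.104 for Cenpj). Leaving out any of Daxx-null serum replicates 1 and 3, wild-type 2i replicate 3 and wild-type serum replicates 1 and 2 also ended the Ndc80 call (adjusted p = 0.0524 to 0.0847).

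Between retinoic acid and serum, 2 members had a higher and 1 a lower effect in retinoic acid, against 4.82% and 3.38% of all tested genes and 8.19% either way. Bub1, lower in serum and not in retinoic acid, had an effect higher by 0.59 (SE 0.12, adjusted p = 0.00768). It had 149.6, 137.0 and 141.0 FPKM in Daxx-null retinoic acid libraries, against 142.5, 131.7 and 133.8 FPKM in wild-type libraries. Oip5 followed, higher by 0.38 (SE 0.11, adjusted p = 0.04996), with 153.7, 161.1 and 141.3 FPKM in Daxx-null and 149.6, 148.0 and 137.1 FPKM in wild-type retinoic acid libraries. The effect on Hjurp was lower in retinoic acid (-0.38, SE 0.10, adjusted p = 0.0333). Bub1 and Oip5 overlapped between genotypes in retinoic acid. Leaving out any single one of the 12 libraries compared except Daxx-null retinoic acid replicate 3 ended the Oip5 call, and leaving out any of the 12 except wild-type serum replicate 1 and wild-type retinoic acid replicate 3 ended the Hjurp call. Both also ended after quantile normalization (adjusted p = 0.0629 for Oip5 and 0.0832 for Hjurp).

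Wild-type cells alone show how these genes move with culture. In 2i, against serum, 8 members were higher and 10 lower, where 24.7% and 24.8% of all tested genes were (49.5% either way), and the members' median was -0.17, against -0.02 for all genes. Cenpm had 638.3, 644.6 and 678.3 FPKM in wild-type 2i libraries, against 181.2, 194.0 and 167.7 FPKM in wild-type serum libraries, a 3.61-fold rise (log2 difference 1.85, SE 0.21, adjusted p = 3e-06). Cenpb rose by 1.16 (SE 0.15, adjusted p = 1.4e-05). Cenpw, which forms a histone-fold pair with Cenpt, had 64.82, 55.06 and 55.6 FPKM in 2i, against 34.04, 38.37 and 29.39 FPKM in serum (0.78, SE 0.16, adjusted p = 0.00078). Pmf1 had 643.6, 640.7 and 748.3 FPKM in 2i, against 482.7, 474.8 and 455.2 FPKM in serum (0.52, SE 0.14, adjusted p = 0.00464). All 4 were separate between cultures, and Cenph, Cenpn, Zwint and Mad2l1 also rose, by 0.30 to 0.46. These 4 smaller rises were less stable. Cenph lost its call without wild-type serum replicate 2 (adjusted p = 0.0503). Cenpn lost it with chromosome shifts removed (0.16, adjusted p = 0.227) and without wild-type 2i replicate 2 or wild-type serum replicate 1, and Zwint lost it after quantile normalization (adjusted p = 0.0558), in the authors' table and without wild-type serum replicate 3. Mad2l1 lost it after quantile normalization, in the authors' table, with chromosome shifts removed, with no filter on low values, with only the groups compared and without any of wild-type 2i replicates 2 and 3 and wild-type serum replicates 1 and 2.

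The falls in wild-type 2i cells were led by Bub1b, with 443.9, 469.0 and 417.1 FPKM in 2i, against 697.1, 660.0 and 676.3 FPKM in serum (log2 difference -0.61, SE 0.08, adjusted p = 9.7e-06). Ndc80 had 22.86, 23.21 and 18.69 FPKM in 2i, against 46.7, 47.7 and 31.36 FPKM in serum (-0.92, SE 0.15, adjusted p = 9.9e-05). Oip5 had 172.9, 175.1 and 177.1 FPKM in 2i, against 244.5, 225.9 and 231.4 FPKM in serum (-0.42, SE 0.08, adjusted p = 0.00047). Hjurp had 251.3, 251.8 and 278.9 FPKM in 2i, against 345.7, 319.0 and 331.1 FPKM in serum (-0.35, SE 0.07, adjusted p = 0.00094). These 4 genes were separate between cultures, although the Hjurp fall was -0.19 with chromosome shifts removed and did not pass (adjusted p = 0.169). Bub1, Cenpp, Ttk, Cenpo, Dsn1 and Bub3 fell by 0.20 to 0.52. The Cenpo call was lost under each other scaling (adjusted p = 0.0634 to 0.190 over quantile normalization, median-ratio scaling, the authors' table and chromosome shifts removed) and without wild-type 2i replicate 1 or 2 or wild-type serum replicate 2. The Ttk call was lost with only the groups compared (adjusted p = 0.0517). Dsn1 and Bub3 lost theirs with chromosome shifts removed and under median-ratio scaling, Bub3 also with no filter on low values and with only the groups compared. Dsn1 lost its call without any 1 of the 6 wild-type libraries compared, and Bub3 without wild-type 2i replicate 3 or wild-type serum replicate 1 or 2. These wild-type 2i libraries are also the reference of the Daxx comparison in 2i, so the comparisons share samples.

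In wild-type cells given retinoic acid, against wild-type serum cells, 19 members were lower and 6 higher, where 34.1% and 30.4% of all tested genes were (64.5% either way). The members' median was -0.29, against -0.05 for all genes. The pluripotency markers summed to 556.8 to 616.3 FPKM in wild-type retinoic acid and 17653.6 to 18421.1 FPKM in wild-type serum libraries, with all 5 called lower. Bub1b had 328.3, 329.1 and 327.2 FPKM in retinoic acid, against 697.1, 660.0 and 676.3 FPKM in serum, a 2.06-fold fall (log2 difference -1.04, SE 0.08, adjusted p = 1.1e-08). Cenpp, of the constitutive network, had 44.03, 53.79 and 47.04 FPKM in retinoic acid, against 109.4, 112.7 and 106.6 FPKM in serum (-1.18, SE 0.12, adjusted p = 2.5e-07). Cenpp spans 4 other entries (Aspn, Ecm2, Omd and Ogn) on the other strand, as Cenpo does Adcy3 and Ptrhd1. Bub1 had 142.5, 131.7 and 133.8 FPKM in retinoic acid, against 235.4, 216.1 and 233.4 FPKM in serum (-0.74, SE 0.09, adjusted p = 1.5e-06). Oip5 had 149.6, 148.0 and 137.1 FPKM in retinoic acid, against 244.5, 225.9 and 231.4 FPKM in serum (-0.69, SE 0.08, adjusted p = 1.6e-06). Each of these was separate between cultures. Cenpt, the network subunit that reaches the NDC80 complex directly, fell by 1.01, Ttk fell by 0.55, Cenpo fell by 0.69 and Incenp fell by 0.76 (adjusted p = 4.9e-06, 1.5e-05, 2.7e-05 and 6.2e-05 in that order).

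Against that fall, Cenpb had 629.1, 631.6 and 676.9 FPKM in retinoic acid, against 211.0, 240.3 and 298.5 FPKM in serum, a 2.61-fold rise (log2 difference 1.38, SE 0.15, adjusted p = 9.4e-07). Zwint had 367.6, 360.2 and 374.2 FPKM in retinoic acid, against 173.5, 180.5 and 156.4 FPKM in serum (1.11, SE 0.14, adjusted p = 4.5e-06). Mis12 had 214.4, 220.8 and 223.4 FPKM in retinoic acid, against 169.9, 166.9 and 161.8 FPKM in serum (0.40, SE 0.07, adjusted p = 0.00016). Nuf2 had 209.9, 201.4 and 173.3 FPKM in retinoic acid, against 155.8, 158.6 and 133.6 FPKM in serum (0.38, SE 0.09, adjusted p = 0.0015). All 4 were separate, and Cenpq (0.42) and Cenpj (0.58) also rose. The Cenpj call was lost after quantile normalization (adjusted p = 0.0539), in the authors' table, and without wild-type retinoic acid replicate 1 (0.114) or 2 (0.0949) or wild-type serum replicate 3 (0.132). With chromosome shifts removed the rise of Mis12 was 0.61. Mis12 overlaps Derl2 on the other strand. Of the further kinetochore genes 20 of 26 fell and 3 rose (Ska2, Itgb3bp and Bod1), of the spindle genes 21 of 25 fell and none rose, and of the replication genes 17 of 25 fell and 3 rose.

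Over the 35 genes the summed FPKM was 7233 to 7606 in Daxx-null and 7364 to 7699 in wild-type serum libraries. It was 5571 to 6979 in Daxx-null and 7768 to 7887 in wild-type 2i libraries, which did not overlap. In retinoic acid it was 6507 to 6658 in Daxx-null and 6201 to 6336 in wild-type libraries. These did not overlap either, but there the Daxx-null sums were the higher ones, although no member was called in retinoic acid. Such sums are dominated by members with high FPKM and include the chromosome 1 members. The deposited FPKM do not sum to a fixed total per library, and the sums were not tested. Among 18 Daxx partners and histone chaperones, 4 fell in Daxx-null 2i cells (Daxx, Asf1b, Pml and Ssrp1) and 2 rose (H3f3a and Sp100). H3f3a and Sp100 lie on chromosome 1.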

How the data were processed

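RNA was extracted with RNeasy columns and DNase, purified with oligo(dT) beads and depleted of rRNA, per the labels' protocols. Bowtie2 2.2.6, HOMER 4.8, limma and the build mm9 are named in the submitters' processing notes, and the sources used here do not give the strand. Deposited FPKM values, 1 table per library made by the authors over gene exons, were used as given. Low values were whole multiples of a counting unit in every library (100% within 0.1), which gave the depths. These FPKM do not sum to a fixed total per library, and their scaling total is not stated. A deposited table of log2 values, quantile-normalized by the authors, served as an alternative, and repeat tables were not used.

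Genes with at least 1 FPKM in at least 3 libraries (18002 of 24505) entered 1 limma fit (3.58.1, R 4.3.3, trend) of 6 group means on log2(FPKM + 0.5), which understates changes of low genes. P-values were adjusted by Benjamini-Hochberg over all tested genes of each comparison and called under 0.05. The fit was tested on simulated data. SE is that of the fit, and SD and n refer to libraries. Tables and figures were made with Python 3.11.15, pandas 2.3.3 and matplotlib 3.10.9.

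Members and lists were chosen with earlier results of these data known. A member was named with statistics if called with groups that do not overlap (for differences of effects, if called), at most 8 in each direction by adjusted p, and values per library were given for the first 4 of these and, in genotype comparisons, for Cenpa, Hjurp, Incenp and the chromosome 1 members. Alternatives were the pseudocount, the filter, the scaling, the removal of each chromosome's median shift, array weights, fits of the compared groups alone, a replicate block and leaving out libraries.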

Additional observations from a re-analysis of the deposited data

Results flagged for a closer look

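The Daxx effect differed between cultures for the members below, by limma's test of the difference of log2 differences with adjustment over all tested genes, and these values were picked out for that reason. In 2i minus serum the difference was -0.71 for Hjurp, -0.67 for Bub1b, -1.15 for Cenpb, -0.83 for Mad2l1, -0.85 for Pmf1, -0.74 for Incenp, -0.43 for Ttk, -0.48 for Cenpq, -0.47 for Nsl1 and -0.47 for Cenpa. It was 0.59 for Spc25, 0.78 for Zwint, 1.04 for Cenpj and 0.61 for Ndc80. In retinoic acid minus serum it was 0.59 for Bub1, 0.38 for Oip5 and -0.38 for Hjurp. Of all tested genes, 43.1% were called in 2i minus serum and 8.19% in retinoic acid minus serum. In 2i minus serum the calls of Cenpq, Nsl1, Cenpa, Spc25, Cenpj and Ndc80 were lost in some settings, as described above. So were those of Oip5 and Hjurp in retinoic acid minus serum. The Daxx-null 2i libraries also differ from the other Daxx-null libraries in Y-linked RNA and in the shift of chromosome 1, and the part of this in the differences was not tested. Whether all Daxx-null libraries come from the same line was not tested either.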

How the results depend on the processing

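Over 60 values of single genes, 1132 of 1208 recomputed values kept direction and call, 76 kept direction and lost the call, and none changed sign. These 60 are the members named by the rule, at most 8 in each direction by adjusted p, so the choice favours stable calls. Less stable calls outside it, such as Cenpa and Nsl1 in 2i minus serum, are described above. Counts are given as higher and lower. In serum they were 4 and 1 with chromosome shifts removed, the same under median-ratio scaling, 4 and 6 with only the groups compared, and 8 and 9 with array weights, whose estimation stopped before its convergence limit. In 2i the lower count was 24 under median-ratio scaling (22.0%), 26 with chromosome shifts removed (22.7%) and 8 with only the groups compared (6.69%). The higher count there was 5 with array weights (43.8%). In retinoic acid array weights gave 12 and 3 (13.1% and 19.3%). For the Daxx effect in 2i minus serum, counts were 1 and 24 with chromosome shifts removed (21.1% and 21.9%). They were 2 and 21 under median-ratio scaling (23.4% and 19.9%), and array weights gave 21 lower (23.0%). Quantile normalization gave 3 and 14 (17.0% and 19.1%). For retinoic acid minus serum, the higher count was 1 with a pseudocount of 0.1, quantile normalization, median-ratio scaling, the authors' normalised table or chromosome shifts removed (3.14% to 4.68%). It was 5 with only the groups compared (12.5%) and 6 with array weights (25.1%). The lower count was 0 after quantile normalization, in the authors' table or with chromosome shifts removed (3.66% to 4.59%), and 2 with array weights (16.9%). In wild-type 2i minus serum, array weights gave 17 lower (34.6%). With only the groups compared fewer samples enter the spread, and the cause of the changed counts was not tested in any setting.

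Leaving out each library in turn gave, in 2i, 3 to 5 higher and 12 to 19 lower (25.6% to 32.7% and 13.5% to 16.8% of all genes). In 2i minus serum it gave 3 to 5 higher and 8 to 16 lower (27.1% to 33.1% and 9.75% to 13.6%), with 16 without Daxx-null 2i replicate 1. In retinoic acid minus serum it gave 1 to 2 higher and 0 to 1 lower (2.69% to 3.77% and 1.97% to 2.69%). In serum it gave 2 higher and 3 lower throughout (5.99% to 7.65% and 13.0% to 15.7%), and in retinoic acid 0 (0.09% to 0.22% and 1.24% to 2.01%). With the replicate number as a block the Daxx comparison gave 2 and 3 (serum, 9.36% and 19.3% of all genes), 3 and 15 (2i, 31.9% and 15.4%) and none (retinoic acid, 0.26% and 2.13%). The differences between cultures gave 4 and 10 (2i, 31.9% and 11.6%) and 2 and 1 (retinoic acid, 4.7% and 3.3%). Wild-type cells gave 8 and 9 (2i, 24.6% and 24.9%) and 6 and 18 (retinoic acid, 30.7% and 34.1%). Deviations of samples with the same number correlated between -0.16 and 0.15, and not every sample correlated best with its own number. No label says that the numbers pair the samples, and such correlations cannot show whether they do. Counting error reached 5.82% at the lowest 295 counting units, and it exceeded the SD between libraries in 17 of the 210 combinations of gene and group.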
